A study of Mus musculus with 8 samples.

Results

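A set of 10 genes that FoxO transcription factors, fasting or a shortage of energy are known to control was followed in infarcted mouse hearts with and without DAPA. The genes were Foxo1, Foxo3, Irs2, Ddit4, Sesn1, Depp1, Txnip, Angptl4, Fbxo32 and Trim63, picked by symbol from the 22173 genes of the deposited table, and all 10 were found. They were picked with the difference between the treated and untreated libraries already known, so that difference is described here without a test. Heart tissue came from C57BL/6J mice whose left anterior descending coronary artery had been tied off, which infarcts the left ventricle. The DAPA group (4 libraries) received DAPA, understood as the SGLT2 inhibitor dapagliflozin, at 1 mg/kg per day for 4 weeks from surgery, and the vehicle group (4 libraries) received vehicle. Both groups carry the ligation, and no unoperated heart entered a comparison. The labels state no age, sex, time of day, feeding state or region of the heart sampled.

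FoxO proteins are forkhead transcription factors that insulin holds in check. When insulin or growth factors act, the kinase AKT phosphorylates FoxO and keeps it out of the nucleus; when insulin is low, as in fasting, FoxO enters the nucleus and switches on genes for fuel sparing, autophagy and protein breakdown. Several of its targets also respond to glucocorticoids, to PPAR alpha (the sensor of fatty acids), to glucose or to a low oxygen supply. In heart muscle the system is known for adjusting fuel use and for setting the rate at which muscle protein is broken down.

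The libraries held 24939013 to 26768206 reads (or read pairs), recovered from the steps of the FPKM values. FPKM is scaled by transcript length and library size, so levels of different genes may be set side by side. Heart muscle transcripts were abundant in both groups, the 13 ventricular markers summing to 31089 to 33088 FPKM in DAPA and 33625 to 34189 FPKM in vehicle libraries. Of 11496 genes with a mean FPKM of 1 or more in a group, 18.4% passed the test between DAPA and vehicle (limma-trend on log2(FPKM + 1), Benjamini-Hochberg adjusted p below 0.05), with 9.62% higher and 8.75% lower in DAPA. That share is the background for each count below. The libraries of the groups stood apart in atrial markers: Myl7, the atrial myosin light chain, had 602.9 ± 27.8 FPKM in DAPA and 1.34 ± 1.10 FPKM in vehicle hearts, and sarcolipin (Sln) 312 ± 19.1 and 0.278 ± 0.41 FPKM (SD, n = 4 each). All 4 DAPA libraries carried them and all 4 vehicle libraries nearly lacked them, so atrial content cannot be told apart from treatment in any difference below. All 10 genes exceeded a mean FPKM of 1 in both groups, so none entered the fit through one group alone.

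Promoter sequence was available for 8 of the 10 genes, in 9 windows of 300 bases that run from 250 bases before to 50 bases after the annotated start of transcription (RefSeq, GRCm38.p6). 6 windows are shown because they either hold a motif bound by the factors named above or belong to the genes that differed most between the groups. Capitals mark matches, searched on both strands, to the FoxO core GTAAACA, the insulin response element CAAAACAA, the E-box CACGTG and the palindromic glucocorticoid element, which is GAACA and TGTTC with any 3 bases between them.
Txnip: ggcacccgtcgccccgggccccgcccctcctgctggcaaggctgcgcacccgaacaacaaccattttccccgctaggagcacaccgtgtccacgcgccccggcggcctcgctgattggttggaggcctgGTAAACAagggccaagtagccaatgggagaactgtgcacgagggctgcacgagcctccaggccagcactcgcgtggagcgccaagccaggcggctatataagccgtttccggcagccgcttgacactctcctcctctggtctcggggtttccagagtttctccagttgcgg
Trim63: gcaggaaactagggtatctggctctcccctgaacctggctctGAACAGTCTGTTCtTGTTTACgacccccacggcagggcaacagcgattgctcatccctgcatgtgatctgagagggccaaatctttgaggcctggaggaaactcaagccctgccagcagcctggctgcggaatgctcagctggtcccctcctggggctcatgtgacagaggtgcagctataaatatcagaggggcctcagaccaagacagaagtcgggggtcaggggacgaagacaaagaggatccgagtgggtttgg
Sesn1: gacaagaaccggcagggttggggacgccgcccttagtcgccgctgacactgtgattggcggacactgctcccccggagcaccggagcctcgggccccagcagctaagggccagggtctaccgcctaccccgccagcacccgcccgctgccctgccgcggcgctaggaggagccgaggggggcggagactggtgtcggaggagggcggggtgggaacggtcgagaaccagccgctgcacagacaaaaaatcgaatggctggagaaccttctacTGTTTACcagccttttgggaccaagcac
Irs2: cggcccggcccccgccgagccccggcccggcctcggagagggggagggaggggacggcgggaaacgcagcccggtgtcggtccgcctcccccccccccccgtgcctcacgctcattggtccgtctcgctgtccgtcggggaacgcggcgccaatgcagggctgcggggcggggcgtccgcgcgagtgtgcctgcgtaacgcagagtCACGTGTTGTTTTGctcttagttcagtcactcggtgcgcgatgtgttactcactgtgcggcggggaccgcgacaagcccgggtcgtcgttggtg
Ddit4: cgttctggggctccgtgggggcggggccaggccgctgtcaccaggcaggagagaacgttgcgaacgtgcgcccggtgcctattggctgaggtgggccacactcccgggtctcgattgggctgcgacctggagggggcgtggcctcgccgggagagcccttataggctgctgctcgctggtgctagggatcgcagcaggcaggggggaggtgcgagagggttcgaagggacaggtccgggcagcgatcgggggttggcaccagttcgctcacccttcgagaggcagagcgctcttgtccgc
Depp1: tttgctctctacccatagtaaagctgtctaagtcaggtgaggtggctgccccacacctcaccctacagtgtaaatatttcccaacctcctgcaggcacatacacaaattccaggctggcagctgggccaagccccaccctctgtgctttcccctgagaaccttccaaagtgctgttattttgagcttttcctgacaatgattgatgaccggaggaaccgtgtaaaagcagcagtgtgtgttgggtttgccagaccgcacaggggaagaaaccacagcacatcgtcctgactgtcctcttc
The windows lie at chr3:96557707-96558006, plus strand for Txnip, at chr4:134314870-134315169, plus strand for Trim63 and at chr10:41810324-41810623, plus strand for the more upstream of the 2 annotated Sesn1 starts. Those of Irs2, Ddit4 and Depp1 lie at chr8:11008880-11009179, minus strand, at chr10:59951721-59952020, minus strand and at chr6:116650434-116650733, plus strand.

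The FoxO core stood in the windows of 3 genes, Txnip, Trim63 and Sesn1, and in 3.65% of all 32851 windows of that length. In Txnip it began at position -121 relative to the start, in Trim63 at -194 and in Sesn1 at 23, just downstream. The Trim63 window also held the glucocorticoid element, at -208, with 1 base between it and the FoxO core, and that element was found in 0.0578% of all windows. In Irs2 an E-box at -44 ran directly into an insulin response element at -38, motifs held by 7.15% and 2.51% of all windows. The windows of Ddit4, Depp1, Foxo1, Foxo3 and the other Sesn1 start held none of these letters. A match is a description of the sequence, not a site of binding.

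**Figure D1:**
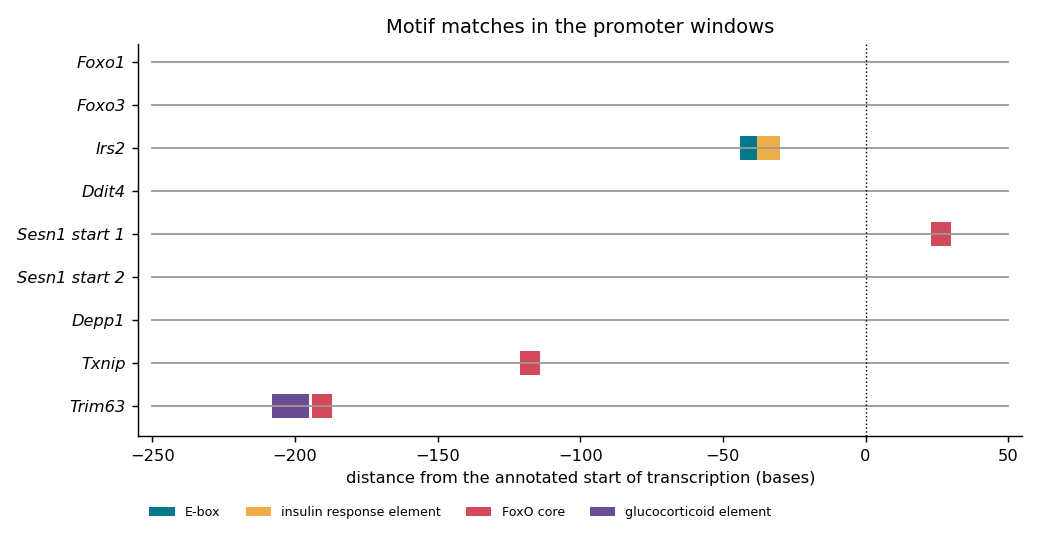
Positions of motif matches (coloured boxes) in 9 promoter windows of 8 genes, plotted by distance in bases from the annotated start of transcription (dotted line). Matches to the FoxO core lie at -121 in Txnip, -194 in Trim63 and 23 in Sesn1, and Trim63 carries a glucocorticoid element beside its FoxO core.

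The transcription factors themselves differed little and in opposite directions. Foxo1, the main FoxO of insulin-responsive tissues, had 7.77, 7.11, 6.26 and 6.85 FPKM in DAPA libraries 1 to 4, against 6.49, 6.42, 5.89 and 6.27 FPKM in vehicle libraries 1 to 4. The groups overlapped, since DAPA library 3 lay below 3 of the 4 vehicle libraries, and the ratio of means was 1.12 (log2 change 0.14, SE 0.062). Foxo3, the more abundant in this tissue, had 12.3, 12.2, 11.8 and 11.7 FPKM in DAPA hearts and 14.5, 13.1, 13.6 and 13.9 FPKM in vehicle hearts. Every DAPA library was lower than every vehicle library, at a ratio of 0.874 (log2 change -0.18, SE 0.044). The level of Foxo3 was 1.58 to 1.89 times that of Foxo1 in DAPA libraries and 2.03 to 2.31 times in vehicle libraries, ranges that did not overlap.

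Irs2, the adaptor that carries the insulin signal from its receptor to PI3K and that FoxO is known to switch on in liver, was the weakest of the 10 genes. It measured 1.84, 1.63, 1.52 and 2.001 FPKM in DAPA libraries and 2.02, 1.82, 2.08 and 1.92 FPKM in vehicle libraries. The groups overlapped at a ratio of means of 0.891 (log2 change -0.11, SE 0.072). With 262 to 354 reads per DAPA library, counting alone gives a coefficient of variation of 5.69%, and the DAPA libraries varied by 12.4%.

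Genes that damp growth signalling under stress held the largest and one of the smaller differences. Ddit4, also called REDD1, restrains the growth kinase mTORC1 when oxygen or energy runs short and is a known target of both glucocorticoids and FoxO. Its level was 52.4, 51.9, 51.3 and 50.03 FPKM in DAPA libraries and 117, 109.5, 109.5 and 113 FPKM in vehicle libraries. The groups stood far apart and each was tight, with a mean of 51.4 ± 1.03 in DAPA and 112 ± 3.72 in vehicle hearts (SD, n = 4 each), a ratio of 0.458 (log2 change -1.11, SE 0.032). Sesn1 encodes sestrin 1, a leucine sensor that likewise holds back mTORC1 and is induced by p53 and FoxO. It had 40.6, 42.7, 43.8 and 43.5 FPKM in DAPA hearts against 46.2, 45.9, 45.8 and 47.4 FPKM in vehicle hearts, with no overlap at a ratio of only 0.92 (log2 change -0.12, SE 0.034).

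Depp1, a FoxO target with a role in autophagy first described as induced by progesterone in decidual cells, behaved much as Ddit4 did. Its values were 41.7, 39.5, 39.99 and 39.95 FPKM in DAPA libraries and 84.2, 82.5, 84.4 and 82.9 FPKM in vehicle libraries. The vehicle libraries spread by 1.14%, less than the 1.87% that counting alone gives at 2779 to 2915 reads, and the ratio of means was 0.482 (log2 change -1.03, SE 0.03).

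Txnip, the thioredoxin-interacting protein that binds thioredoxin and slows glucose uptake, was the most abundant of the 10. It measured 257, 245, 261 and 260.1 FPKM in DAPA hearts, against 364, 363, 373 and 375 FPKM in vehicle hearts. No DAPA library came near a vehicle library, and the ratio was 0.693 (log2 change -0.53, SE 0.028). In absolute terms this was the largest gap of the set, with means of 256 ± 7.58 and 369 ± 5.99 FPKM (SD, n = 4 each) in DAPA and vehicle hearts.

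Angptl4, the secreted inhibitor of lipoprotein lipase that rises in fasting through PPAR and glucocorticoid receptors, had 4.52, 3.94, 3.49 and 3.75 FPKM in DAPA libraries and 7.22, 7.97, 10.2 and 8.45 FPKM in vehicle libraries. The groups did not overlap (ratio 0.464, log2 change -0.94, SE 0.09), but vehicle library 3 stood above the other 3, and the vehicle coefficient of variation of 14.9% was the widest of the set. Only 169 to 223 reads per DAPA library and 358 to 485 per vehicle library lie behind these values. Because 1 is added before taking logs, the log2 change understates this low gene, and with a pseudocount of 0.01 it was -1.10. Adipocytes also make Angptl4, and all 12 adipocyte markers tested were lower in DAPA (limma adjusted p below 0.05), summing to 136 to 178 FPKM in DAPA and 415 to 543 FPKM in vehicle libraries. Of these markers Plin1 and Adrb3, at means of 0.976 and 0.189 FPKM in DAPA hearts, entered the fit through their vehicle levels only. Among vehicle libraries the highest adipocyte sum was in library 4 and the highest Angptl4 in library 3, while both were lowest in library 1. Among DAPA libraries both were highest in library 1 and lowest in library 3. In bulk tissue, fewer cells of a type cannot be told apart from less RNA in each cell, and the part of adipocyte content in the Angptl4 difference was not tested.

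The set holds a pair of muscle ubiquitin ligases, and Trim63 had the smallest log2 change of the 10 genes. Fbxo32 (atrogin-1), the F-box protein that marks muscle proteins for the proteasome and a classic FoxO target, had 12.7, 12.6, 11.9 and 11.8 FPKM in DAPA libraries and 14.6, 12.9, 14.9 and 13.7 FPKM in vehicle libraries. The groups came close without overlapping, at a ratio of 0.874 (log2 change -0.18, SE 0.051). Trim63 (MuRF1), the RING-finger ligase of the sarcomere, had 63.0, 68.7, 65.4 and 64.3 FPKM in DAPA hearts and 71.7, 65.997, 66.02 and 70.2 FPKM in vehicle hearts. DAPA library 2 lay inside the vehicle range, the ratio was 0.955 (log2 change -0.07, SE 0.038), and the gap between the means was close to the SD of 2.44 in DAPA and 2.90 in vehicle hearts. Of the windows shown above, that of Trim63 is the one with both the FoxO core and the glucocorticoid element.

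**Figure D2:**
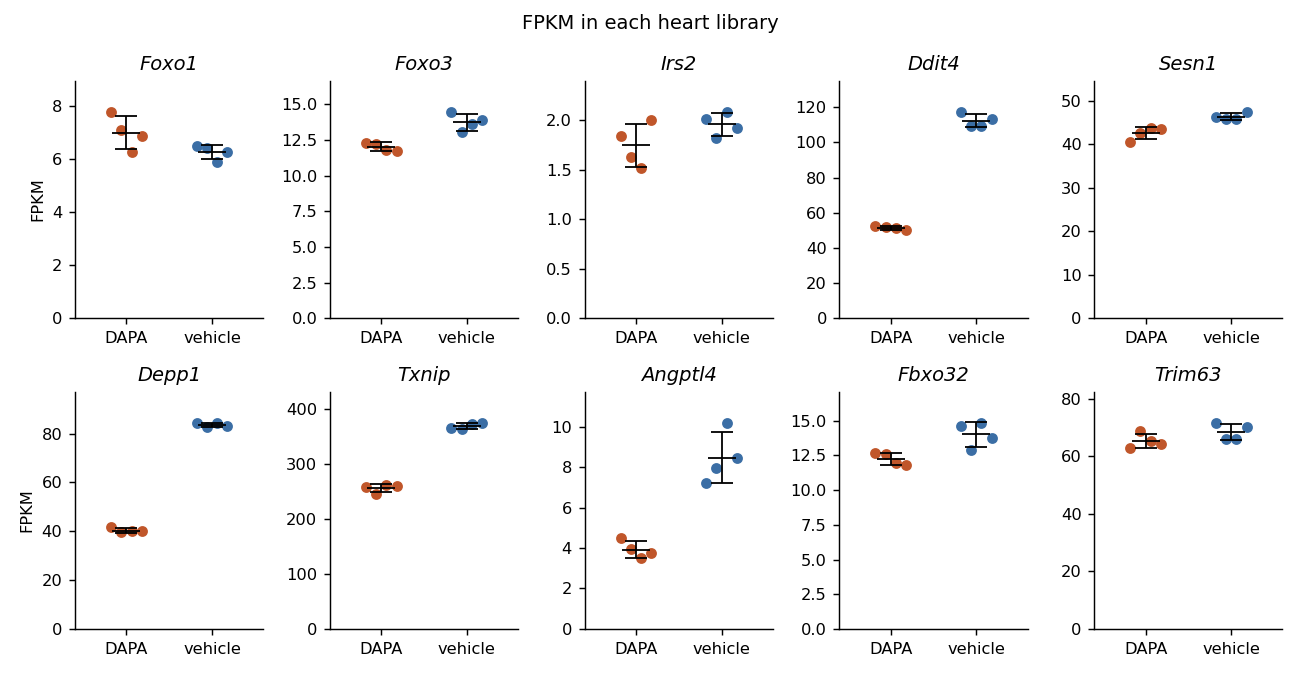
FPKM of the 10 genes in each library (points), with the mean and SD of 4 libraries per group (black bars) and each axis starting at 0. Ddit4, Depp1, Txnip and Angptl4 show wide gaps between DAPA and vehicle, Sesn1, Foxo3 and Fbxo32 narrow ones, and Foxo1, Irs2 and Trim63 overlap.

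Of the 10 genes, 7 did not overlap between the groups and all 7 were lower in DAPA, where 9.99% of all genes tested did not overlap and were lower. Since the genes were chosen with this contrast known, nothing is read from that count. Their median log2 change was -0.18, beside 0.01 for all genes tested. Over the alternative settings the log2 change lay between -1.13 and -1.09 for Ddit4, between -1.10 and -0.85 for Angptl4, between -0.13 and -0.095 for Sesn1 and between -0.22 and -0.15 for Fbxo32. In the authors' deposited table the fold of DAPA over vehicle ran from 0.454 for Ddit4 to 1.11 for Foxo1.

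The order of the levels changed with the group. In vehicle hearts Ddit4 (112 FPKM) and Depp1 (83.5 FPKM) stood above Trim63 (68.5 FPKM) and Sesn1 (46.3 FPKM). In DAPA hearts the order ran Trim63 (65.4 FPKM), Ddit4 (51.4 FPKM), Sesn1 (42.6 FPKM) and Depp1 (40.3 FPKM), and the libraries of Sesn1 and Depp1 overlapped. Within a library the level of Ddit4 was 0.756 to 0.832 times that of Trim63 in DAPA hearts and 1.61 to 1.66 times in vehicle hearts. Angptl4 and Foxo1 changed places in the same way, with 3.93 and 6.998 FPKM in DAPA hearts and 8.46 and 6.27 FPKM in vehicle hearts. Fbxo32 and Foxo3 could not be ordered in either group, their libraries overlapping at 12.3 and 12.02 FPKM in DAPA and 14.02 and 13.8 FPKM in vehicle hearts.

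**Figure D3:**
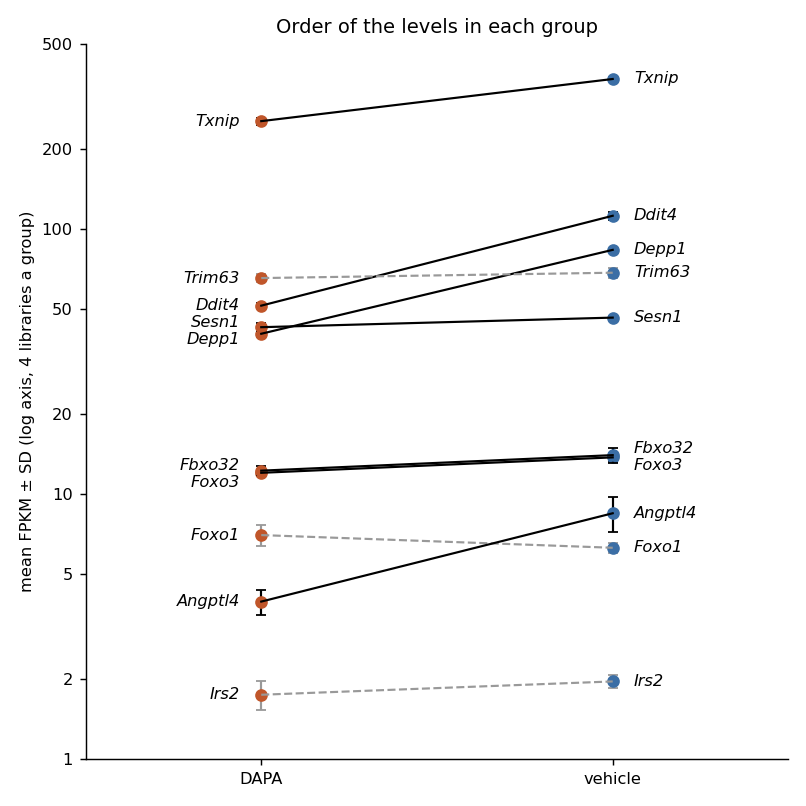
Mean FPKM ± SD of the 10 genes on a log axis, with DAPA on the left and vehicle on the right (4 libraries a group). Solid lines join genes whose libraries do not overlap between groups and dashed grey lines those that do; Ddit4 and Depp1 cross Trim63, and Angptl4 crosses Foxo1.

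Close relatives, taken by membership of the same gene family, did not all move with the 10 genes. Foxo4, the FoxO abundant in muscle, was higher at 12.7 ± 0.229 FPKM in DAPA and 11.1 ± 0.671 FPKM in vehicle hearts (log2 change 0.18, limma adjusted p = 0.024). That call was lost without DAPA library 2 (adjusted p = 0.051), DAPA library 4 (0.064) or vehicle library 4 (0.061). Foxo6 stayed under the filter at 0.741 ± 0.309 and 0.703 ± 0.204 FPKM in DAPA and vehicle hearts. The sestrin Sesn2, a target of the stress factor ATF4, rose to 1.96 ± 0.236 FPKM in DAPA, against 1.33 ± 0.241 FPKM in vehicle hearts (log2 change 0.34, limma adjusted p = 0.015), opposite in sign to Sesn1. Sesn3 varied too widely to read, at 1.27 ± 0.585 and 1.26 ± 0.582 FPKM in DAPA and vehicle hearts (limma adjusted p = 0.99). Ddit4l, the paralogue of Ddit4, entered the fit through its DAPA level only, at 1.01 ± 0.269 and 0.789 ± 0.114 FPKM in DAPA and vehicle hearts. It did not pass (limma adjusted p = 0.31), though it did without DAPA library 2 (0.047). Irs1 likewise showed no difference beyond its spread, at 4.25 ± 0.325 and 4.13 ± 0.354 FPKM (limma adjusted p = 0.8).

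Among the arrestin-fold relatives of Txnip, Arrdc2 fell most, to 5.32 ± 0.427 FPKM in DAPA against 11.3 ± 0.986 FPKM in vehicle hearts (2.12-fold lower, log2 change -0.96, limma adjusted p = 5.2e-07). Arrdc3, which helps remove beta-adrenergic receptors from the cell surface, fell to 8.81 ± 0.78 FPKM in DAPA against 10.4 ± 0.121 FPKM in vehicle hearts (log2 change -0.22, limma adjusted p = 0.015). Arrdc1 narrowly missed the threshold at 5.89 ± 0.596 and 6.91 ± 0.413 FPKM in DAPA and vehicle hearts (limma adjusted p = 0.056). It passed without DAPA library 2 (0.032), with a filter at a mean FPKM of 5 (0.045) and under both rescalings (0.047 each). Arrdc4, like Txnip a target of the glucose-responsive factors MondoA and ChREBP, measured 6.87 ± 0.433 FPKM in DAPA and 6.64 ± 0.361 FPKM in vehicle hearts (log2 change 0.04, limma adjusted p = 0.67).

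Among the angiopoietin-like relatives of Angptl4, Angptl2 and Angptl7 fell. Angptl2 measured 53.7 ± 0.701 FPKM in DAPA and 68.6 ± 2.69 FPKM in vehicle hearts (limma adjusted p = 1.0e-05), and Angptl7 96.4 ± 8.31 and 124.7 ± 8.01 FPKM (limma adjusted p = 5.8e-04). Angptl1 and Angptl6 did not pass (limma adjusted p = 0.8 and 0.82). Angptl8, the feeding-induced partner of the family, stayed under the filter with 3 to 24 reads per DAPA library and 0 to 4 per vehicle library. Lipoprotein lipase itself (Lpl), the enzyme Angptl4 inhibits, measured 1237 ± 20.8 FPKM in DAPA and 1217 ± 42.7 FPKM in vehicle hearts (limma adjusted p = 0.62). Its capillary anchor Gpihbp1 fell 1.34-fold, to 136 ± 6.37 against 181.8 ± 7.7 FPKM (limma adjusted p = 7.8e-06). The relatives of Trim63 did not differ beyond their spread, with Trim54 at 201 ± 4.73 and 201 ± 3.41 FPKM and Trim55 at 15.7 ± 1.32 and 15.8 ± 0.403 FPKM in DAPA and vehicle hearts (limma adjusted p = 0.97 and 0.95).

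Of 24 other known FoxO targets, the 10 genes above left out, 8 fell and 1 rose, and the other 15 did not pass, against a background of 8.75% lower and 9.62% higher. The median of the list was -0.0002 on the log2 scale. Pdk4, the kinase that switches off pyruvate dehydrogenase in fasting, fell to 33.0 ± 1.17 FPKM in DAPA against 65.6 ± 3.89 FPKM in vehicle hearts. Pck1, an enzyme of gluconeogenesis and glyceroneogenesis that fat cells also make, fell to 0.245 ± 0.161 against 2.81 ± 0.27 FPKM and entered the fit through its vehicle level only. Pik3ip1, an inhibitor of PI3K, fell 1.36-fold and Cited2, a transcriptional cofactor, 1.28-fold (limma adjusted p = 3.0e-05 and 2.4e-04). The riser was the mitophagy kinase Pink1, at 292 ± 7.18 and 255 ± 4.95 FPKM in DAPA and vehicle hearts, named after its values were seen. Without vehicle library 2 the list held 2 risers.

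In the list of FoxO regulators, which also holds the FoxO factor Foxo4, 2 of 22 tested genes rose and 1 fell. That share of 13.6% lies near the background of 18.4%. Akt1, the kinase that excludes FoxO from the nucleus, rose to 95.4 ± 1.12 FPKM in DAPA against 82.0 ± 1.29 FPKM in vehicle hearts (limma adjusted p = 1.1e-04), and the other riser was Foxo4. The one that fell was Sgk1, a kinase that phosphorylates FoxO much as AKT does and is itself induced by glucocorticoids, at 28.3 ± 1.37 and 40.4 ± 0.606 FPKM in DAPA and vehicle hearts (limma adjusted p = 1.3e-06). Without DAPA library 2 or 4 or vehicle library 4 the list held 1 riser. Of 24 genes of insulin and PI3K signalling 3 rose and 2 fell (20.8%), among them the lipid phosphatase Inppl1 (log2 change 0.23) and the pseudokinase Trib1 (-0.37). In that list 1 rose without DAPA library 1 or 3 or vehicle library 3, and 1 fell without any single library other than vehicle library 2. Among 31 genes of the energy sensor AMPK and of mTORC1 2 rose and 3 fell (16.1%). The AMPK subunit Prkag2 rose 1.52-fold to 6.32 ± 0.202 FPKM in DAPA against 4.16 ± 0.276 FPKM in vehicle hearts (limma adjusted p = 3.0e-05). The arginine sensor Castor1 fell to 5.40 ± 0.377 against 8.10 ± 0.387 FPKM (limma adjusted p = 3.4e-05). In this list 1 gene fell without DAPA library 1, 2, 3 or 4 or vehicle library 1 or 4. These shares lie near the background.

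Fasting genes driven by PPAR alpha leaned lower. Of 23 tested, 7 fell and 1 rose, with a median log2 change of -0.08. Besides Pdk4, the mitochondrial carrier Ucp3 fell 2.09-fold to 5.37 ± 0.254 against 11.3 ± 0.41 FPKM, and the peroxisomal enzyme Ehhadh fell 1.41-fold (limma adjusted p = 3.4e-08 and 8.3e-04). Fabp3, the fatty acid carrier of heart muscle, fell 1.17-fold (limma adjusted p = 1.1e-04). The list held 0 risers without DAPA library 1, 2 or 4 or vehicle library 1, 3 or 4. Among 19 other genes of muscle ubiquitin ligases and atrophy 4 fell and none rose, the largest fall being that of Klf15, a glucocorticoid-induced regulator of muscle metabolism (log2 change -0.53, limma adjusted p = 1.4e-05). Fbxo31 fell 1.16-fold (limma adjusted p = 0.003). Fbxo40 and Cblb passed narrowly (limma adjusted p = 0.02 and 0.042), and without DAPA library 1 neither passed, 2 genes fell and 1 rose.

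The list around Txnip held arrestin-fold and thioredoxin genes, glucose-responsive factors with Mlx, and the glucose transporters Slc2a1 and Slc2a4. Of its 13 tested genes 6 fell and 1 rose, against a background of 8.75% lower and 9.62% higher. The glucose-responsive factors fell, Mlxipl (ChREBP) to 3.58 ± 0.528 FPKM in DAPA against 4.93 ± 0.284 FPKM in vehicle hearts and Mlxip (MondoA) to 5.71 ± 0.095 against 7.02 ± 0.586 FPKM (limma adjusted p = 0.0053 and 0.0081). Txnrd2, the mitochondrial thioredoxin reductase, fell 1.18-fold (limma adjusted p = 0.0011). Slc2a1 was the riser and Slc2a4 fell (log2 changes 0.19 and -0.16, limma adjusted p = 0.0094 and 0.0084). Mlx, Txn1, Txn2 and Txnrd1 did not pass (limma adjusted p = 0.63, 0.67, 0.18 and 0.8). The transporters and the genes that did not pass were named after their values were seen. Of 16 hypoxia-inducible genes, the class to which Ddit4 also belongs, 4 rose and 2 fell. Adrenomedullin (Adm), a vasodilator peptide, rose 1.81-fold to 19.2 ± 1.33 against 10.6 ± 0.544 FPKM (limma adjusted p = 3.5e-07), opposite in sign to Ddit4. The collagen hydroxylase P4ha1 rose 1.21-fold (limma adjusted p = 2.2e-04). The 2 that fell, with the same sign as Ddit4, were Bnip3 and Pfkfb3 (log2 changes -0.17 and -0.28, limma adjusted p = 0.0019 and 0.0067).

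Of the 11 pathway and clock lists, that of glucocorticoid-responsive genes held the highest share called. All 14 in the list passed, 12 lower and 2 higher, with a median log2 change of -0.63, beside 0.01 for all genes tested. Tsc22d3 (GILZ), a glucocorticoid-induced leucine zipper protein, fell to 49.3 ± 1.45 FPKM in DAPA against 107 ± 1.13 FPKM in vehicle hearts (log2 change -1.11, limma adjusted p = 5.0e-11). Fkbp5, a cochaperone of the glucocorticoid receptor, fell to 12.4 ± 0.602 against 26.6 ± 0.679 FPKM, the metallothionein Mt2 to 53.7 ± 6.28 against 147 ± 2.88 FPKM and the clock repressor Per1 to 3.62 ± 0.253 against 12.3 ± 0.562 FPKM (limma adjusted p = 3.2e-09, 5.4e-09 and 9.7e-10). The receptor gene Nr3c1 and the iron-binding protein Lcn2, named after their values were seen, were the ones that rose (log2 changes 0.21 and 0.42). Per1 is also a clock gene, and Sgk1 and Klf15 above stand in the glucocorticoid list as well. Clock genes moved in the same libraries, 11 of 17 lower and 3 higher, with a median of -0.43. Falls of clock genes, metallothioneins and Pdk4 in these libraries were known when the lists were drawn up, so the counts are not independent evidence.

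**Figure D4:**
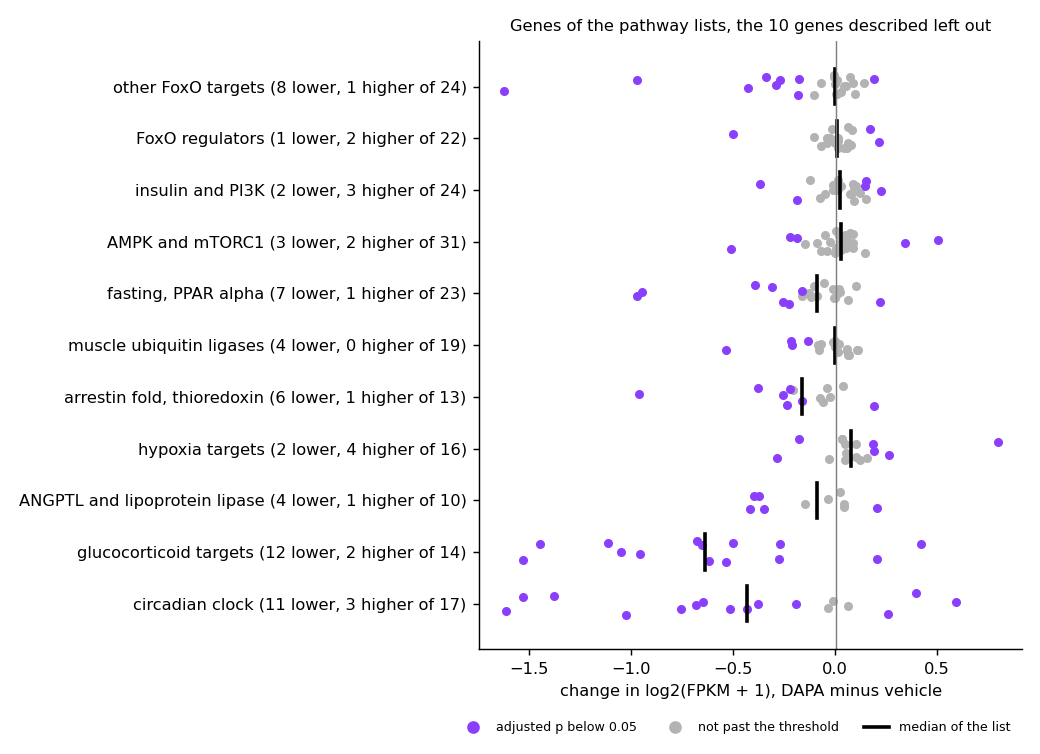
Change in log2(FPKM + 1), DAPA minus vehicle, of every tested gene in 11 lists (points; purple where the limma adjusted p is below 0.05), with the median of each list as a black bar and that of all genes as a grey line. Most lists centre near 0 with a few larger falls, while the glucocorticoid (-0.63) and clock (-0.43) lists are shifted as a whole.

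The genes nearest in pattern to 3 members were taken as those with the smallest root mean square difference over the 8 libraries, after subtracting the vehicle mean of log2(FPKM + 1). For Ddit4 they were Tsc22d3 (0.041), Depp1 (0.065), Fkbp5 (0.067), the interferon-induced Oasl2 (0.09) and Fam107a (0.096). For Txnip they were B4galt4 (0.029), Cilp (0.035), Sgk1 (0.036), the glutamine transporter Slc1a5 (0.042) and the kinase Snrk (0.046). For Angptl4, a noisier gene, the nearest included Arrdc2 (0.11), Rtp4 (0.13), Pdk4 (0.13) and Cebpd (0.14). All of these share the same 8 libraries and the same contrast.

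Markers of other cell types also separated the groups. Of 10 marker lists, including the clock, 5 did not overlap between DAPA and vehicle in their mean log2(FPKM + 1): the clock, adipocyte, atrial, skeletal muscle and endothelial lists. Each had the smallest p that 70 assignments allow (exact two-sided permutation p = 0.0286, adjusted p = 0.0571 over 10 lists), so none passed at 0.05. The atrial markers summed to 12903 to 13603 FPKM in DAPA and 8108.0 to 9046 FPKM in vehicle libraries, with 10 of 12 higher and 1 lower. Most of each sum was Nppa, at 12070 ± 305 and 8481 ± 447 FPKM in DAPA and vehicle hearts. The sum therefore hides the far wider gap of Myl7 and Sln given above. Sln, Myl4, Mybphl and Bmp10 entered the fit through their DAPA levels only. The endothelial markers summed to 2356 to 2396 FPKM in DAPA and 2582 to 2705 FPKM in vehicle libraries, with 7 of 12 higher and 3 lower. The endothelial sum was thus lower in DAPA while the mean of the log2 values was higher. The skeletal muscle list was checked because Fbxo32 and Trim63 are abundant there. Of its 12 markers 6 were under the filter and 2 of the other 6 were higher, of which Pvalb entered the fit through its DAPA level only. The sums were 2561 to 2793 FPKM in DAPA and 2718 to 2838 FPKM in vehicle libraries. Ventricular, fibroblast, macrophage, erythroid and smooth muscle lists overlapped between the groups in their mean log2(FPKM + 1), and no marker of any list was at 0 in all libraries. Summed FPKM was nonetheless lower in every DAPA than in every vehicle library for ventricular markers (31089 to 33088 against 33625 to 34189 FPKM). Actc1 had the largest gap in that list, at 6152 ± 116 FPKM in DAPA and 7413 ± 107 FPKM in vehicle hearts. Of the 13 ventricular markers 2 were lower in DAPA, Actc1 and Myl2, and 1 was higher, Irx4 (limma adjusted p below 0.05). The smooth muscle sum was also lower in every DAPA library (1390 to 1419 against 1473 to 1528 FPKM). Most of it was Des, at 922 ± 17.9 FPKM in DAPA and 1034 ± 23.2 FPKM in vehicle hearts. Of the 8 smooth muscle markers 3 were higher in DAPA, Myh11, Tagln and Cnn1, and 2 lower, Des and Kcnj8 (limma adjusted p below 0.05). The part of these cell types in the differences above was not tested.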

How the data were processed

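Poly(A) RNA of 8 heart libraries (4 DAPA, 4 vehicle) was sequenced. Per the labels' protocols, libraries were made with a TruSeq stranded mRNA kit, Trimmomatic removed low-quality sequence, and reads of 150 bases came in pairs. The tools listed, per the submitters' processing notes, are HISAT2, SAMtools, StringTie, Cufflinks, HTSeq and DESeq, with no versions or roles, and the build is given as GRCh38, a human assembly, although the symbols and identifiers are those of mouse genes. Which build the values rest on could not be settled, and no source states whether counting used strand.

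The deposited values are FPKM per library, made by the authors with no libraries pooled, and a table of the authors' own comparison, a fold ratio of DAPA over vehicle with a q-value. Nothing says that the libraries come from separate mice, so p-values measure the spread between these libraries. Whole reads (tolerance 0.0001) were recovered from the FPKM steps for all 17356 genes above 0, giving depth and 1 alternative; coefficients of variation from counting cover counting error only.

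Main test, on the whole table: limma-trend, run in limma 3.58.1 under R 4.3.3, with group as its term and log2(FPKM + 1) of all 8 libraries as input, and genes with a mean FPKM of 1 or more in a group (11496), Benjamini-Hochberg adjusted at 0.05. The fit was tested on simulated data. Marker lists were compared by exact two-sided permutation over 70 assignments. All adjusted p-values of single genes are from limma. The 10 genes, the 20 gene lists and the tests were chosen with earlier results of these data known. From each pathway list, up to 4 genes with the smallest p among those past the threshold could be named, besides the relatives of the 10 genes. Replicate numbers did not pair the libraries: deviations of same-numbered libraries correlated between -0.055 and 0.014. Promoters were matched by NCBI Gene identifier to RefSeq (GRCm38.p6), for 8 of 10 genes. Alternatives, 17 in all, changed the pseudocount (0.1, 0.01), the filter (none, or a mean of 5), the scaling (median ratio, quantile), the variance trend, a replicate block, limma voom on recovered reads, and left out each of the 8 libraries. Some genes of these lists are not reported here.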

Additional observations from a re-analysis of the deposited data

Results flagged for a closer look

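In 7 of 76 groups of 4 libraries examined, 1 library lay far from the other 3 by Dixon's criterion, which chance alone meets in about 1 of 20 groups. None of the 7 concerned any of the 10 genes described. DAPA library 2 was the one apart for Foxo6 (0.278 FPKM), Irs1 (3.76 FPKM) and Angptl1 (2.59 FPKM), low in each, and for Trim54 (208 FPKM), where it was high. Vehicle library 4 was apart for Foxo4 (10.1 FPKM, low), for the summed adipocyte markers (543 FPKM, high) and for the summed endothelial markers (2705 FPKM, high).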

How the results depend on the processing

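The counts of genes called over the whole table stayed within 1.5 times the reported ones under all 17 alternatives, at 857 to 1387 higher and 810 to 1188 lower, and the pathway lists together held 13 to 20 risers and 38 to 47 fallers. The marker lists without overlap numbered 5 or 6 under the settings tried (pseudocount, median ratio scaling and leaving out each library). No log2 change of the 10 genes turned direction. With a replicate block, 906 genes were higher and 858 lower, in place of 1106 and 1006. Only 1 of the 8 libraries correlated best with its own number, so the numbers pair nothing. Foxo4, Fnip2 (a member of the AMPK and mTORC1 list), Cblb and Adgre1 (a macrophage marker) lost their calls under the block.

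Reversals touched only genes near 0 that passed in neither setting. Sesn3 turned to -0.0013 with median ratio scaling and -0.022 with quantile normalization, and ranged from -0.15 to 0.16 without 1 library. Trim54 turned to -0.0091 and -0.013 under the same scalings and ranged from -0.014 to 0.010 without 1 library. Without 1 library Irs1 ranged from -0.0095 to 0.078, Angptl6 from -0.076 to 0.0044 and Trim55 from -0.054 to 0.036. A mean FPKM of 5 removed Irs2 from the fit. Depth limits Irs2 and Angptl4 most, with 169 to 485 reads per library.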

Other observations

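In the annotation carried by the deposited table, 4 of the 10 genes belong to the FoxO signalling pathway: Foxo1, Foxo3, Irs2 and Fbxo32. Their ratios of mean FPKM, DAPA over vehicle, ran from 0.874 to 1.12. The 4 genes with the lowest ratios, Ddit4 (0.458), Angptl4 (0.464), Depp1 (0.482) and Txnip (0.693), carry other annotations or none. Sesn1 (0.92) and Trim63 (0.955) also stand outside that pathway, and their ratios lie within the range of the annotated genes. Since the genes were chosen with this contrast known, nothing is read from this split. Depp1 and Trim63 are listed in no pathway. The same table gives 6 of the 10 genes a term for autophagy or mitophagy.

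Tsc22d3 was picked above as the gene nearest in pattern to Ddit4, so their closeness in change follows from that choice. The levels of Tsc22d3 and Ddit4 were also close, at 49.3 and 51.4 FPKM in DAPA hearts and 107 and 112 FPKM in vehicle hearts.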
